A study of Homo sapiens with 10 samples.

Results

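The genes described here are 49 genes of DNA replication and mismatch repair, chosen by name from families whose proteins copy the genome in S phase. They hold the MCM helicase with MCM8 and MCM10, the GINS and origin recognition complexes, CDC6, CDT1 and CDC45, the sliding clamp PCNA with its loader RFC, RPA, subunits of polymerases alpha, delta and epsilon, FEN1 and LIG1, 3 genes of nucleotide supply, 3 of chromatin, MSH6 and CLSPN. All 49 were found among the 12540 genes of the table and all passed the filter on low counts. They were measured in SRA01-04, a human lens epithelial line immortalised with viral large T antigen, which binds RB and p53. Cells were transfected with an empty plasmid (libraries EV1 to EV5) or with a plasmid expressing RORα, a nuclear receptor (OE1 to OE5), and 48 h later all were given selenite, a selenium salt that causes oxidative stress, at 10 µM for 24 h. Every library therefore came from transfected cells with selenite, and no group without selenite or without a plasmid was analysed here. The labels give neither the promoter of the plasmid nor whether replicates came from separate cultures, so the p-values measure the spread between these samples, which may be technical.

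Replication begins when ORC, CDC6 and CDT1 load the ring of MCM2 to MCM7 onto origins before S phase. CDC45 and GINS then turn that ring into the active helicase, RPA coats the unwound strands, polymerase alpha with primase starts each chain, and RFC opens PCNA to place it behind polymerases delta and epsilon. FEN1 and LIG1 join the lagging-strand pieces, CHAF1A and CHAF1B set histones on the new DNA, and MSH6 helps find mismatched bases that the polymerases left. Many of these genes are transcribed at the G1/S boundary by E2F factors, which bind short sites close to the start of the gene.

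Those sites are shown first, because 22 of the genes were found to hold one. RefSeq promoter windows (GRCh38.p14, 250 bases before to 50 after the start, 300 in all) were at hand for 43 of the 49 genes, the others being MCM4, MCM5, GINS4, RPA2, RPA3 and POLD3. Each stretch has 40 bases, read 5′ to 3′ on the strand of the gene, with capitals marking an E2F octamer (TTTCCCGC, TTTGGCGC, TTTCGCGC or TTTGCCGC, or its reverse complement). The first 6 genes fell, CDT1 and GINS1 rose, and MCM7 and CDC6 did not pass the test.
MCM3, chr6:52284723-52284762, minus strand: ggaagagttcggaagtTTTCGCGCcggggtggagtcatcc
MCM6, chr2:135876506-135876545, minus strand: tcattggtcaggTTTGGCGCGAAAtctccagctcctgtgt
UHRF1, chr19:4909471-4909510, plus strand: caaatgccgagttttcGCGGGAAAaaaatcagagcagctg
POLA1, chrX:24693765-24693804, plus strand: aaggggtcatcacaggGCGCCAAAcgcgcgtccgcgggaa
PCNA, chr20:5126658-5126697, minus strand: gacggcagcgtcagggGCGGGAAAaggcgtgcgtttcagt
MSH6, chr2:47783132-47783171, plus strand: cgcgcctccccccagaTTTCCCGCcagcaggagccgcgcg
CDT1, chr16:88803738-88803777, plus strand: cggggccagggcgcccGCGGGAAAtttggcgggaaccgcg
GINS1, chr20:25407662-25407701, plus strand: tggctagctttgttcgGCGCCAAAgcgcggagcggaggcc
MCM7, chr7:100101383-100101422, minus strand: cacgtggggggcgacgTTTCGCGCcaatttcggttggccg
CDC6, chr17:40287870-40287909, plus strand: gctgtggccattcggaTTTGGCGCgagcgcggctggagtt
In the MCM6 stretch 2 octamers overlap and share bases. Whole windows are given for the MCM subunit that fell furthest and for CDT1, to show the surroundings of the sites.
MCM3, chr6:52284693-52284992, minus strand: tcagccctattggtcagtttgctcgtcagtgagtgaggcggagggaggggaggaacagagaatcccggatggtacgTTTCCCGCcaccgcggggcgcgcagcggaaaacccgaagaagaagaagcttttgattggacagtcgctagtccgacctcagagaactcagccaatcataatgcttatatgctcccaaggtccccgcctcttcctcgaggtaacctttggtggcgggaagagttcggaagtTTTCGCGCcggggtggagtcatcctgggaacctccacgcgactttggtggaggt
CDT1, chr16:88803539-88803838, plus strand: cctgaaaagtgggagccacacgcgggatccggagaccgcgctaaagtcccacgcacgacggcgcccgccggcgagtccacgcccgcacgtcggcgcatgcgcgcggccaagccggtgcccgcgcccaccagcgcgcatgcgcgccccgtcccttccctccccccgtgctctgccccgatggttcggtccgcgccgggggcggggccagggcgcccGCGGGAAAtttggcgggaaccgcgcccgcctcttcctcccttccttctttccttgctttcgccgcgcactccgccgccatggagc
An octamer was present in 22 of the 43 windows (51.2%), compared with 5.3% of the 10184 windows of genes tested here and 3.3% of all 27305 windows of this length. Among the genes that fell it was in 12 of 21, among those that rose in 2 of 7, and among those that did not pass in 8 of 15. The 4 MCM helicase windows all held one and so did 3 of 4 for GINS and CDC45, whereas ORC3 was the only one of 6 ORC genes with a match. The CCAAT box (CCAAT on either strand) was in 27 of 43 windows (62.8%) and in 36.8% of those of genes tested. A core motif of ROR sites (TAGGTCA or TGGGTCA, either strand) was in 3 windows (7.0%), those of MCM2, RRM1 and RPA1. It was in 4.0% of the windows of genes tested. The bases beside this motif were not searched, so a match need not be a site that RORα binds. A match describes letters and does not show a bound factor.

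RORA was read first, as a check of the labels. Its level was 16.4, 14.8, 17.04, 11.2 and 15.5 CPM in EV1 to EV5 and 41.7, 42.5, 39.4, 44.03 and 38.6 CPM in OE1 to OE5, where CPM is the count scaled to a library total of 1000000 after TMM scaling. The groups did not overlap, and RORA rose 2.74-fold in the edgeR fit (exact two-sided permutation test of the library values, p = 0.00794, the smallest that 5 libraries against 5 allow over 252 splits). Reads of the plasmid and of the cells' own gene cannot be told apart in these counts. Library totals ran from 17475342 to 21956761 counts, and a count of 0 in a library would allow 0.137 to 0.171 CPM, while the lowest count of any of the 49 genes in a library was 216. Of 11 lens epithelium markers, 4 were in the table, PAX6, SIX3, GJA1 and CRYAB, and CRYAA, FOXE3, PROX1, MAF, PITX3, CDH1 and AQP1 were not among its genes. Their summed level was 78.3 to 86.1 CPM in EV and 79.6 to 91.5 CPM in OE, most of it from GJA1 at 53.2 ± 3.07 CPM in EV and 55.8 ± 3.07 CPM in OE. PAX6, SIX3 and GJA1 did not pass, and CRYAB, a small heat shock protein of the lens, fell without overlap from 1.43 ± 0.292 to 0.3695 ± 0.178 CPM (adjusted p = 3.17e-06). Fibroblast markers were high and moved with the plasmid, as 8 of 10 were in the table and all 8 fell, with a summed level of 3098 to 3332 CPM in EV and 1032 to 1156 CPM in OE. The listed fibroblast markers DCN and LUM were not among the table's genes. Of 8 lens fibre markers 3 were in the table, with a summed level of 12.3 to 16.4 CPM in EV and 11.7 to 13.5 CPM in OE. Of 6 immune markers CD14 alone was there, at 2.44 to 3.63 CPM in EV and 1.08 to 1.71 CPM in OE. The part of these markers in the results below was not tested.

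Replication genes changed by small amounts, and mostly downward. With RORα, 23 of the 49 genes fell (46.9%) and 8 rose (16.3%), at an adjusted p under 0.05 in edgeR's quasi-likelihood test over all genes, and 18 did not pass. Of the 12520 genes tested, 27.5% fell and 28.6% rose. Changed genes in either direction made up 63.3% of the 49 and 56.1% of all genes tested. Their summed level was 5605 to 5717 CPM in the EV libraries and 5184 to 5321 CPM in the OE libraries, without overlap. In bulk RNA, fewer cells in S phase and less of these transcripts per cell cannot be told apart. The median log2 fold change was -0.10 over the 49 genes and 0.00 over all genes tested. By sign alone, 36 of the 49 lay below the empty vector, compared with 49.6% of all genes.

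The changes were small beside those of other genes. Changes of at least 1.2-fold that passed the test numbered 7, or 14.3% of the 49 (5 lower, 2 higher), compared with 31.9% of all genes tested, and none of the 49 reached 1.5-fold, which 12.3% of all genes did. All 5 OE libraries lay below all 5 EV libraries for 17 genes (34.7%), compared with 18.9% of all genes, and above them for 4 genes (8.16%), compared with 20.8%. Replicates were close, with a median coefficient of variation over the 49 genes of 3.897% in EV and 4.43% in OE. For the 18 genes that did not pass, the 95% interval of the change reached at most 1.197-fold in either direction. Removing trends of GC content and exon length turned the split into 32 lower and 6 higher among the 49 genes, and into 4347 lower and 3312 higher among all genes. In that fit 9 more of the genes fell (MCM7, GINS2, CDC6, POLD2, POLE2, RRM1, RRM2, CHAF1A and CLSPN) and 1 more rose (ORC4), and the calls of CDC45, ORC6 and RFC4 as higher were lost.

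**Figure D1:**
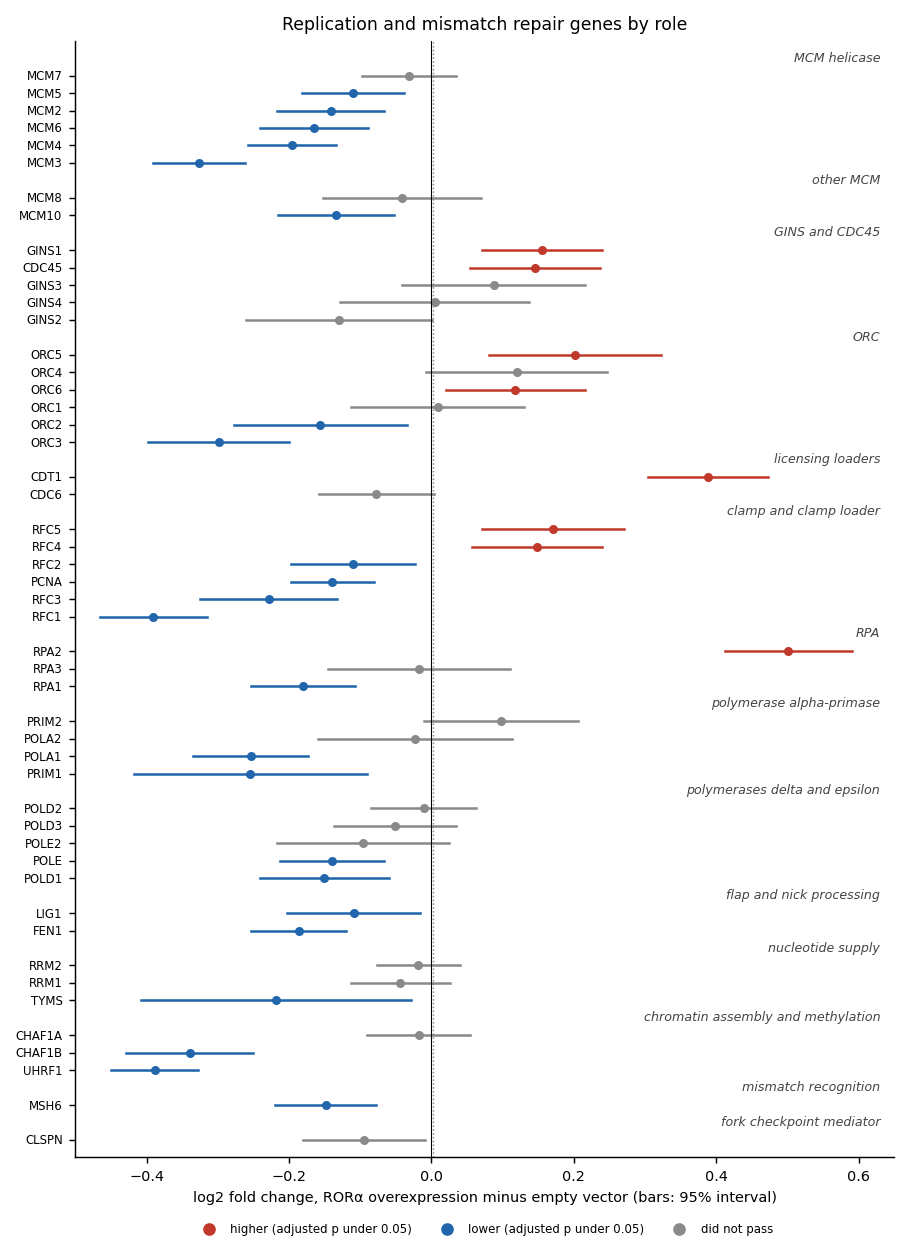
Log2 fold change (x axis, RORα overexpression minus empty vector) of each of the 49 genes (y axis, grouped by role), with bars for the 95% interval and colour for the edgeR call; the dotted line is the median of all genes tested. Points range from -0.39 for RFC1 and UHRF1 to 0.50 for RPA2, and the clamp loader and RPA blocks hold genes on both sides of 0.

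**Figure D2:**
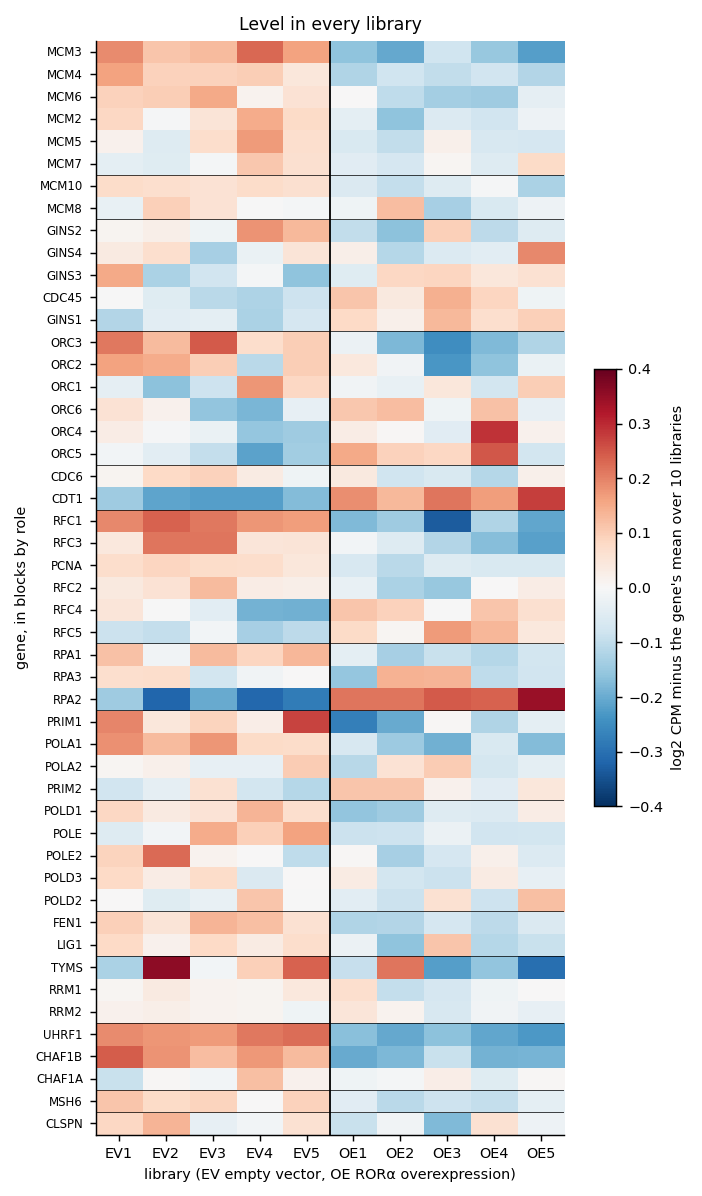
Log2 CPM of each gene (rows, in blocks by role) in each of the 10 libraries (columns), minus the gene's mean over all libraries. The 5 OE columns are lower than the 5 EV columns for 17 genes, such as RFC1 and UHRF1, and higher for 4 genes, RPA2, CDT1, RFC5 and GINS1.

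Origin recognition and licensing genes moved in both directions. Of the 6 ORC subunits, ORC3 and ORC2 fell, ORC5 and ORC6 rose, and ORC1 and ORC4 did not pass. Among all genes tested, 27.5% fell and 28.6% rose. ORC3, a subunit of the core complex, was at 62.6, 59.01, 64.1, 56.8 and 57.96 CPM in EV1 to EV5 and 53.2, 47.8, 45.6, 47.9 and 49.7 CPM in OE1 to OE5. The groups did not overlap, and ORC3 fell 1.23-fold, from 60.1 ± 3.13 to 48.8 ± 2.85 CPM (SD, n = 5 in each group, as for all means below; log2 fold change -0.30, SE 0.049, adjusted p = 1.79e-06). ORC5, which sits beside ORC4 in the ring, was at 31.1, 30.5, 29.4, 27.03 and 28.5 CPM in EV1 to EV5 and 34.8, 33.5, 33.3, 37.3 and 29.8 CPM in OE1 to OE5. Its OE5 value lay within the EV range, and ORC5 rose 1.15-fold (log2 fold change 0.20, SE 0.060, adjusted p = 0.00418). ORC6 went from 64.3 ± 4.69 to 69.8 ± 3.74 CPM (log2 fold change 0.12, adjusted p = 0.0354) and ORC2 from 35.9 ± 2.58 to 32.1 ± 2.501 CPM (log2 fold change -0.16, adjusted p = 0.0251), each with overlapping groups. The ORC6 call was lost on leaving out EV3, EV4, OE1, OE2 or OE4 (adjusted p = 0.0862 to 0.125), and that of ORC2 on leaving out EV1, EV2, OE3 or OE4 (0.0656 to 0.0913). ORC1, the subunit that is degraded during S phase, was at 33.4 ± 3.17 CPM in EV and 33.6 ± 1.58 CPM in OE (adjusted p = 0.917), and ORC4 at 27.96 ± 1.62 CPM in EV and 30.4 ± 2.93 CPM in OE (adjusted p = 0.104).

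CDT1, which brings MCM2 to MCM7 to ORC and CDC6, had the second largest rise of the 49 genes. Its level was 63.6, 60.7, 60.2, 60.3 and 62.3 CPM in EV1 to EV5 and 79.9, 76.8, 81.4, 78.8 and 85.1 CPM in OE1 to OE5. Every OE library was above every EV library, and CDT1 rose 1.31-fold, from 61.4 ± 1.48 to 80.4 ± 3.12 CPM (log2 fold change 0.39, SE 0.042, adjusted p = 2.28e-10; chr16:88803213-88809258, plus strand). Its partner CDC6, an ATPase that helps load the MCM ring, was at 97.6 ± 3.05 CPM in EV and 92.5 ± 4.298 CPM in OE and did not pass (adjusted p = 0.095, 95% interval of the log2 change -0.16 to 0.00), although it passed as lower without OE1 (adjusted p = 0.0448). The ratio of CDT1 to CDC6 was 0.6299 ± 0.0325 in EV and 0.870 ± 0.0334 in OE. GMNN encodes geminin, the protein that binds CDT1 and blocks relicensing, and the ratio of CDT1 to GMNN was 1.04 ± 0.0442 in EV and 1.28 ± 0.0605 in OE. GMNN itself was at 59.3 ± 2.597 CPM in EV and 62.7 ± 1.42 CPM in OE (adjusted p = 0.118) and did not pass. These ratios of CPM, and those given further on, were chosen after the values were seen and carry no test.

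Of the 6 MCM helicase genes 5 fell, and MCM7 did not pass, where 27.5% of all genes tested fell. MCM3 fell furthest, with 327, 310.0, 313, 336 and 321 CPM in EV1 to EV5 and 257, 249.2, 271, 258 and 246 CPM in OE1 to OE5. The highest OE value stayed below the lowest EV value, and MCM3 fell 1.254-fold, from 321 ± 10.6 to 256 ± 9.82 CPM (log2 fold change -0.33, SE 0.032, adjusted p = 2.43e-11; chr6:52264009-52284881, minus strand). MCM4 went from 262 ± 7.41 to 229 ± 3.29 CPM (log2 fold change -0.20, adjusted p = 8.78e-07), MCM6 from 138 ± 4.91 to 123 ± 5.504 CPM (log2 fold change -0.16, adjusted p = 0.000278) and MCM2 from 136 ± 5.205 to 123 ± 4.58 CPM (log2 fold change -0.14, adjusted p = 0.00133), each without overlap between the groups. MCM5 went from 223 ± 12.6 to 207 ± 6.47 CPM (log2 fold change -0.11, adjusted p = 0.00775), with overlapping groups. MCM7, at 420.1 ± 19.9 CPM in EV and 411 ± 16.9 CPM in OE, did not pass (log2 fold change -0.03, SE 0.032, adjusted p = 0.424, 95% interval -0.10 to 0.03), but fell with GC content and length trends removed (-0.09, adjusted p = 0.000749). The ratio of MCM7 to MCM3 was 1.31 ± 0.0446 in EV and 1.61 ± 0.0986 in OE. Outside the ring, MCM10, a scaffold that helps activate the helicase, was at 75.3, 74.9, 74.4, 75.4 and 74.8 CPM in EV1 to EV5 and 68.8, 67.04, 69.03, 71.4 and 65.5 CPM in OE1 to OE5. MCM10 groups did not overlap, and the gene fell 1.097-fold (log2 fold change -0.13, SE 0.040, adjusted p = 0.00476). MCM8, which works with MCM9 in repair by recombination, was at 35.8 ± 1.303 CPM in EV and 34.8 ± 2.27 CPM in OE (adjusted p = 0.538).

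Of the 5 genes of GINS and CDC45, 2 rose and 3 did not pass, where 28.6% of all genes tested rose. GINS1 was at 62.4, 65.7, 65.8, 62.1 and 64.7 CPM in EV1 to EV5 and 71.6, 68.6, 74.01, 70.9 and 72.3 CPM in OE1 to OE5. Its groups did not overlap, and it rose 1.11-fold (log2 fold change 0.16, SE 0.041, adjusted p = 0.00159). CDC45, the other partner that rose, went from 55.4 ± 1.91 to 61.2 ± 2.66 CPM (log2 fold change 0.15, adjusted p = 0.00579), with overlapping groups. That call was lost with GC content and length trends removed (log2 fold change 0.04, adjusted p = 0.479). The other GINS subunits did not pass, with GINS2 at 24.7 ± 1.48 CPM in EV and 22.6 ± 1.57 CPM in OE (adjusted p = 0.0846), GINS3 at 24.9 ± 2.19 CPM in EV and 26.4 ± 1.001 CPM in OE (adjusted p = 0.246) and GINS4 at 23.9 ± 1.32 CPM in EV and 23.9 ± 2.02 CPM in OE (adjusted p = 0.961). GINS2 passed as lower without OE3 (adjusted p = 0.0278), in limma on log2(FPKM + 1) (0.048) and with GC content and length trends removed (0.00115). The 4 proteins form a complex of 1 copy each.

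PCNA and the 5 clamp loader genes all passed the test, as did 56.1% of all genes tested. PCNA, RFC1, RFC2 and RFC3 were lower and RFC4 and RFC5 higher. The calls of RFC2 and RFC4 were not kept in every alternative, as given below. PCNA, the ring that tethers polymerases and many repair proteins, was at 327, 331, 329, 328 and 322 CPM in EV1 to EV5 and 299, 289.5, 301, 299 and 299 CPM in OE1 to OE5. The groups did not overlap and PCNA fell 1.101-fold, from 327 ± 3.300 to 297 ± 4.502 CPM (log2 fold change -0.14, SE 0.029, adjusted p = 7.02e-05; chr20:5114953-5126626, minus strand); with GC content and length trends removed the log2 change was -0.26. RFC1, the large subunit, was at 162, 167, 164, 160.0 and 159 CPM in EV1 to EV5 and 125, 128, 112, 130.3 and 123 CPM in OE1 to OE5. RFC1 and UHRF1 had the largest falls of the 49 genes, alike within their errors, and RFC1 fell 1.31-fold from 162 ± 3.07 to 124 ± 6.997 CPM without overlap (log2 fold change -0.39, SE 0.037, adjusted p = 1.12e-11; chr4:39287456-39366375, minus strand). With GC content and length trends removed, UHRF1 (-0.45), MCM3 (-0.42) and CHAF1B (-0.40) fell at least as far as RFC1 (-0.39) in log2 terms. RFC5, a small subunit, was at 41.3, 41.02, 43.5, 40.01 and 40.8 CPM in EV1 to EV5 and 46.2, 44.1, 49.3, 48.1 and 45.1 CPM in OE1 to OE5. All OE values lay above all EV values and RFC5 rose 1.13-fold (log2 fold change 0.17, SE 0.049, adjusted p = 0.00316), with a log2 change of 0.11 once GC content and length trends were removed (adjusted p = 0.0429). RFC4 was at 85.1, 82.1, 79.9, 72.1 and 71.9 CPM in EV1 to EV5 and 88.7, 87.7, 82.2, 88.9 and 85.9 CPM in OE1 to OE5. EV1 lay within the OE range, RFC4 rose 1.11-fold (log2 fold change 0.15, SE 0.045, adjusted p = 0.00485), and the call was lost with GC content and length trends removed (log2 fold change 0.07, adjusted p = 0.114).

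The remaining small subunits fell. RFC3 went from 71.9 ± 4.598 to 61.4 ± 3.55 CPM (log2 fold change -0.23, adjusted p = 8.62e-05), without overlap, and RFC2 from 74.7 ± 2.195 to 69.3 ± 3.75 CPM (log2 fold change -0.11, adjusted p = 0.0285), with overlap. The RFC2 call was lost without EV3, OE2 or OE3 (adjusted p = 0.0822 to 0.0907), and its log2 change was -0.23 with GC content and length trends removed. The ratio of RFC4 to RFC1 was 0.482 ± 0.0313 in EV and 0.701 ± 0.0201 in OE, and that of RFC5 to RFC1 was 0.255 ± 0.0073 and 0.378 ± 0.0359, so the loader's transcripts shifted toward these small subunits relative to RFC1. RFC1 is the one subunit of this loader that is replaced in the alternative loaders, which share RFC2 to RFC5. Of 5 genes of the alternative loaders 4 were in the table. In that list 1 gene fell and 3 did not pass, where 27.5% of all genes tested fell. The gene that fell was RAD17, whose loader places the 9-1-1 clamp at damage. It went from 36.3 ± 4.48 to 29.3 ± 2.54 CPM (log2 fold change -0.31, adjusted p = 0.00021), with overlapping groups. The count of falls in that list was 2 without EV4 or without OE1.

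RPA subunits moved apart. RPA2, the middle subunit, which is phosphorylated when forks stall, had the largest rise of the 49 genes, with 61.98, 54.9, 59.6, 54.98 and 56.4 CPM in EV1 to EV5 and 79.4, 79.3, 81.2, 80.6 and 86.95 CPM in OE1 to OE5. Every OE library exceeded every EV library, and RPA2 rose 1.42-fold, from 57.6 ± 3.104 to 81.5 ± 3.16 CPM (log2 fold change 0.50, SE 0.044, adjusted p = 1.37e-12; chr1:27891524-27914746, minus strand). With GC content and length trends removed the log2 change was 0.38 for RPA2, close to 0.35 for CDT1. RPA1, which holds the main DNA-binding domains, fell from 148 ± 6.05 to 130.3 ± 3.31 CPM (log2 fold change -0.18, adjusted p = 4.88e-05), without overlap. RPA3, the small subunit, was at 28.1 ± 1.16 CPM in EV and 27.8 ± 2.71 CPM in OE (adjusted p = 0.835). The ratio of RPA2 to RPA1 was 0.390 ± 0.0173 in EV (0.371 to 0.412) and 0.626 ± 0.0257 in OE (0.588 to 0.6601), the largest relative shift among the ratios computed.

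**Figure D3:**
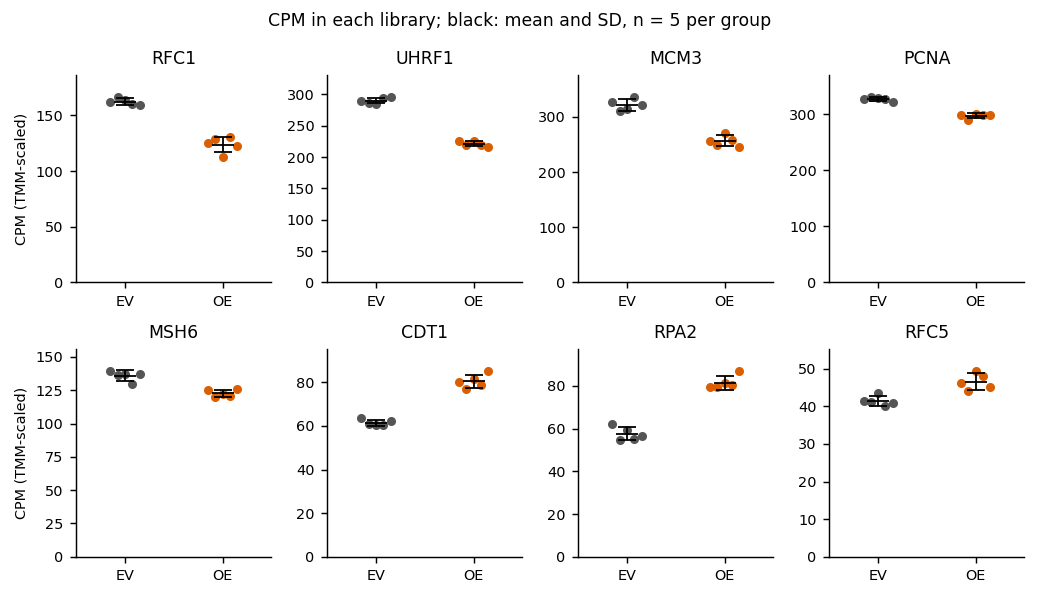
CPM (y axis, from 0) in each EV and OE library (points) for 8 genes, with the mean and SD in black, n = 5 per group. RFC1, UHRF1, MCM3, PCNA and MSH6 are lower in every OE library, and CDT1, RPA2 and RFC5 are higher in every OE library.

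Among the polymerases, the catalytic subunits of all 3 enzymes fell, where 27.5% of all genes tested fell. The accessory subunits among the 49 genes, POLA2, PRIM2, POLD2, POLD3 and POLE2, did not pass. Outside the 49 genes, POLE3 rose from 106 ± 3.58 to 114 ± 5.33 CPM (log2 fold change 0.11, adjusted p = 0.0187), with overlapping groups. POLD4 and POLE4 did not pass. POLA1, the catalytic subunit of polymerase alpha, fell from 103 ± 3.74 to 86.1 ± 3.69 CPM (log2 fold change -0.25, adjusted p = 9.34e-07), without overlap. PRIM1, the catalytic subunit of primase, was at 15.5, 13.95, 14.4, 13.8 and 16.3 CPM in EV1 to EV5 and 11.2, 11.8, 13.6, 12.4 and 13.1 CPM in OE1 to OE5. The highest OE value was just below the lowest EV value, and PRIM1 fell 1.19-fold (log2 fold change -0.25, SE 0.081, adjusted p = 0.00735). POLA2 was at 19.4 ± 0.756 CPM in EV and 19.1 ± 1.19 CPM in OE (adjusted p = 0.789) and PRIM2 at 35.1 ± 1.64 CPM in EV and 37.5 ± 1.705 CPM in OE (adjusted p = 0.118), and 76.3% of the principal PRIM2 transcript also matched another gene, so its counts are uncertain. POLD1, the catalytic subunit of polymerase delta, was at 66.3, 64.1, 65.01, 68.8 and 65.5 CPM in EV1 to EV5 and 56.1, 56.6, 60.4, 60.2 and 63.9 CPM in OE1 to OE5. OE5 came nearest to the EV libraries without reaching them, and POLD1 fell 1.11-fold (log2 fold change -0.15, SE 0.045, adjusted p = 0.00411). POLE, the leading-strand polymerase, fell from 229 ± 14.9 to 208 ± 3.74 CPM (log2 fold change -0.14, adjusted p = 0.0012), with overlapping groups. The accessory subunits POLD2 at 315 ± 14.00 CPM in EV and 313 ± 20.4 CPM in OE (adjusted p = 0.819), POLD3 at 75.2 ± 2.93 CPM in EV and 72.6 ± 2.84 CPM in OE (adjusted p = 0.309) and POLE2 at 32.4 ± 2.76 CPM in EV and 30.3 ± 1.28 CPM in OE (adjusted p = 0.17) did not pass. With GC content and length trends removed, POLD2 (log2 fold change -0.07, adjusted p = 0.00801) and POLE2 (-0.16, 0.00948) passed as lower.

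The genes of lagging-strand joining, FEN1 and LIG1, fell, as did 27.5% of all genes tested. FEN1, the nuclease that trims flaps, was at 176, 171, 181, 179 and 172 CPM in EV1 to EV5 and 151, 152, 157, 153 and 158 CPM in OE1 to OE5. The groups did not overlap, and FEN1 fell 1.14-fold (log2 fold change -0.19, SE 0.033, adjusted p = 7.85e-06), with a log2 change of -0.30 once GC content and length trends were removed. A stretch of 50% of its principal transcript matches the pseudogene FEN1P1, and reads of such copies could be split. LIG1, the ligase that seals the nicks, went from 68.2 ± 1.39 to 63.3 ± 4.74 CPM (log2 fold change -0.11, adjusted p = 0.0419), with overlapping groups. Leaving out EV1, EV3, EV5, OE2, OE4 or OE5 ended that call (adjusted p = 0.0747 to 0.138).

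Of the 3 nucleotide supply genes, TYMS fell, and RRM1 and RRM2 did not pass, where 27.5% of all genes tested fell. TYMS, the enzyme that makes thymidylate, was at 12.6, 17.6, 13.7, 14.7 and 16.2 CPM in EV1 to EV5 and 12.9, 15.9, 11.8, 12.3 and 11.2 CPM in OE1 to OE5. The groups overlapped, and TYMS fell 1.16-fold, close to the threshold (log2 fold change -0.22, SE 0.093, adjusted p = 0.0449). The call was kept in 9 of 19 alternatives and lost without EV2, EV5, OE1, OE3, OE4 or OE5 (adjusted p = 0.0663 to 0.189). With GC content and length trends removed the log2 change was -0.34. ENOSF1 on the opposite strand overlaps 39.1% of its exon bases, and no strand-marking step is named in the labels. RRM1 and RRM2, the subunits of ribonucleotide reductase, were at 167 ± 1.78 CPM in EV and 162 ± 7.18 CPM in OE (adjusted p = 0.286) and at 387 ± 4.32 CPM in EV and 383 ± 11.3 CPM in OE (adjusted p = 0.61), and the 95% interval of the RRM2 log2 change was -0.08 to 0.04. Both passed as lower with GC content and length trends removed, at log2 changes of -0.08 and -0.06.

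Chromatin genes held 2 of the larger falls. UHRF1, which reads hemimethylated DNA behind the fork and brings in DNMT1, was at 289, 287, 285, 294 and 296 CPM in EV1 to EV5 and 226, 220.0, 226, 219.5 and 216 CPM in OE1 to OE5. No OE library came near an EV library, and UHRF1 fell 1.31-fold, from 290.2 ± 4.58 to 222 ± 4.37 CPM (log2 fold change -0.39, SE 0.030, adjusted p = 3.09e-14; chr19:4903080-4962154, plus strand). A match to another gene covers 44.1% of its principal transcript. CHAF1B, the middle subunit of chromatin assembly factor 1, was at 67.2, 64.3, 61.9, 64.1 and 62.05 CPM in EV1 to EV5 and 49.4, 50.1, 53.4, 49.9 and 49.9 CPM in OE1 to OE5. It fell 1.27-fold without overlap (log2 fold change -0.34, SE 0.044, adjusted p = 2.23e-08), while CHAF1A, the large subunit that binds PCNA, was at 166 ± 8.68 CPM in EV and 164 ± 3.19 CPM in OE (adjusted p = 0.697).

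MSH6, which recognises mismatched bases in new DNA, was at 139, 136, 137, 129 and 138 CPM in EV1 to EV5 and 125, 119.8, 122, 121 and 126 CPM in OE1 to OE5. The groups did not overlap and MSH6 fell 1.11-fold, from 136 ± 3.85 to 123 ± 2.63 CPM (log2 fold change -0.15, SE 0.035, adjusted p = 0.000425; chr2:47695530-47810101, plus strand). Part of its annotated exons (16.2%) overlaps FBXO11 on the opposite strand. CLSPN encodes claspin, which links a stalled fork to CHEK1, and was at 104, 107, 95.6, 96.9 and 102 CPM in EV1 to EV5 and 91.9, 96.8, 86.5, 102 and 96.3 CPM in OE1 to OE5. Its groups overlapped and it did not pass (log2 fold change -0.09, SE 0.043, adjusted p = 0.0565), though it passed as lower in 5 of 19 alternatives, among them those without EV3, EV4 or OE4 (adjusted p = 0.0196 to 0.0304).

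Levels between genes were compared per length, as CPM per kb of union exon. In EV, PCNA stood highest at 223 ± 2.24 CPM per kb (SD, n = 5), above every other gene of the 49. MCM7 at 95.8 ± 4.54, MCM3 at 88.1 ± 2.899 and POLD2 at 85.3 ± 3.79 CPM per kb came next, and their library ranges overlapped from each one to the next. RRM2 at 72.8 ± 0.812 and FEN1 at 70.8 ± 1.77 CPM per kb followed, again with overlapping ranges. Subunits of one ring differed in level, with MCM4 at 37.6 ± 1.06, MCM6 at 33.5 ± 1.19, MCM5 at 30.4 ± 1.71 and MCM2 at 27.7 ± 1.06 CPM per kb. ORC4 was lowest at 3.14 ± 0.181 CPM per kb, next to POLA2 at 3.39 ± 0.132 CPM per kb, whose range overlapped with it. Dividing by the length of the principal transcript left PCNA highest (241 CPM per kb) and ORC4 lowest (4.17 CPM per kb) but moved others, such as MCM5 (63.2 CPM per kb) past MCM6 (36.9 CPM per kb). Another annotated gene overlaps more than 10% of the exon bases of 8 genes (MCM2, GINS3, GINS4, POLA2, PRIM1, RRM2, TYMS and MSH6), and copies elsewhere match more than 20% of the principal transcript of 4 (PRIM2, FEN1, UHRF1 and ORC4), so the counts of these genes are uncertain.

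**Figure D4:**
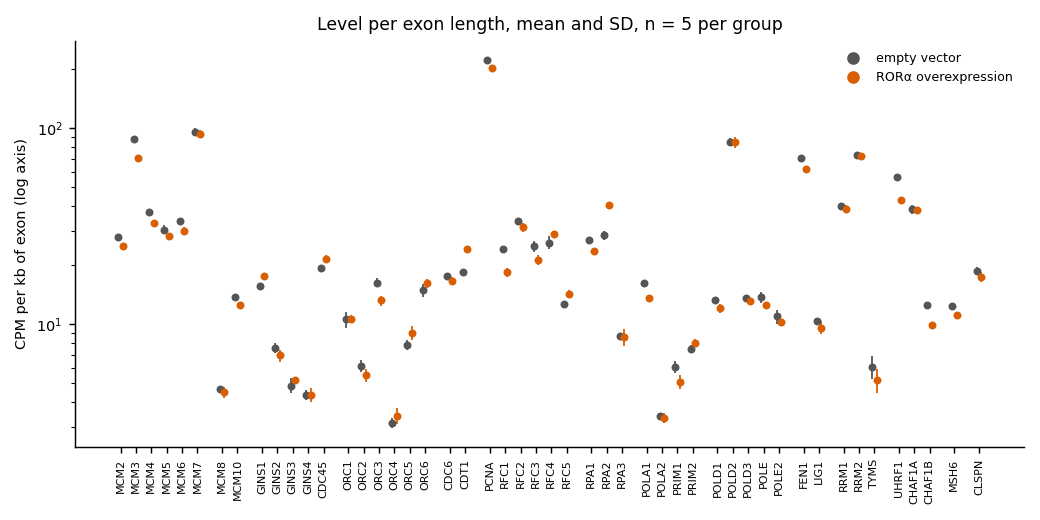
CPM per kb of union exon (y axis, log scale) for the 49 genes in blocks by role, as mean and SD over 5 libraries, for EV (grey) and OE (orange). Levels range from 3.14 for ORC4 to 223 for PCNA in EV, and for most genes the difference between the groups is small beside the range between genes.

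Other genes of the same processes were read from lists of their own, and some genes are in several lists. Beside the counts in these lists, 27.5% of all genes tested fell and 28.6% rose. Of 25 further replisome and origin firing genes, 10 fell, 3 rose and 12 did not pass, with a median log2 change of -0.10, and 1 listed gene, RNASEH2A, was not among the table's genes. RNASEH2C, a subunit of the enzyme that removes ribonucleotides, fell from 28.1 ± 2.04 to 20.2 ± 2.61 CPM (log2 fold change -0.48, adjusted p = 5.28e-07). TOP2A, which untangles replicated DNA, fell from 483 ± 26.02 to 376 ± 14.7 CPM (log2 fold change -0.36, adjusted p = 4.21e-12). DONSON, a factor in helicase assembly, fell from 70.3 ± 3.44 to 55.3 ± 3.297 CPM (log2 fold change -0.34, adjusted p = 5.79e-08), while CTC1, of the CST complex at telomeres, rose from 18.1 ± 1.56 to 22.7 ± 1.99 CPM (log2 fold change 0.33, adjusted p = 0.000162). The count of rises in that list was 1 without EV5.

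Of 9 genes of replication-coupled chromatin, 6 fell and 1 rose (median log2 change -0.18). DNMT1, the maintenance DNA methyltransferase, fell from 589 ± 11.96 to 512 ± 13.4 CPM (log2 fold change -0.20, adjusted p = 4.92e-08), and HELLS, a remodeller needed for DNA methylation, from 135 ± 6.09 to 117 ± 4.97 CPM (log2 fold change -0.21, adjusted p = 1.62e-05). The histone chaperone paralogs differed, as ASF1A fell from 25.1 ± 1.52 to 20.1 ± 0.635 CPM (log2 fold change -0.32, adjusted p = 4.26e-05) and ASF1B rose from 81.4 ± 3.35 to 99.5 ± 3.64 CPM (log2 fold change 0.29, adjusted p = 6.88e-08). Of 14 other nucleotide supply genes, 5 rose, 5 fell and 4 did not pass, compared with 28.6% rising and 27.5% falling among all genes tested. TK2, the mitochondrial thymidine kinase, rose from 6.58 ± 0.773 to 8.86 ± 1.24 CPM (log2 fold change 0.43, adjusted p = 0.00103) and UMPS, of pyrimidine synthesis, from 45.03 ± 1.298 to 52.8 ± 1.804 CPM (log2 fold change 0.23, adjusted p = 5.79e-05). DUT, which removes dUTP, fell from 74.6 ± 1.58 to 61.9 ± 1.73 CPM (log2 fold change -0.27, adjusted p = 5.91e-07).

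Control genes of S phase entry moved in both directions, as did all genes tested, of which 28.6% rose and 27.5% fell. Of 18 E2F and RB genes, 6 rose, 3 fell and 9 did not pass (median log2 change 0.03). E2F1 was at 136 ± 5.56 CPM in EV and 137 ± 6.71 CPM in OE (adjusted p = 0.804). RBL2, the RB relative p130, fell from 51.4 ± 3.79 to 37.8 ± 2.16 CPM (log2 fold change -0.44, adjusted p = 5.02e-09), and E2F8, a repressor of the family, from 21.02 ± 0.818 to 16.9 ± 1.62 CPM (log2 fold change -0.31, adjusted p = 0.000314). Their paralogs moved the other way, as RBL1, the RB relative p107, rose from 45.4 ± 3.61 to 53.9 ± 3.595 CPM (log2 fold change 0.25, adjusted p = 0.000159) and E2F7, also a repressor, from 111 ± 2.98 to 137 ± 8.98 CPM (log2 fold change 0.31, adjusted p = 2.13e-08). E2F2, an activator, rose from 19.2 ± 1.01 to 24.1 ± 1.24 CPM (log2 fold change 0.33, adjusted p = 3.62e-05), and E2F5 from 9.000 ± 0.479 to 11.2 ± 0.922 CPM (log2 fold change 0.32, adjusted p = 0.00273). Of 16 S phase kinases, cyclins and brakes, 8 fell and 3 rose (median log2 change -0.11). CDKN1A, the inhibitor p21, which binds PCNA as well as cyclin-dependent kinases, was at 42.9, 43.5, 42.5, 41.4 and 43.03 CPM in EV1 to EV5 and 95.1, 94.2, 102, 96.1 and 102 CPM in OE1 to OE5. It rose 2.29-fold without overlap (log2 fold change 1.2, SE 0.043, adjusted p = 5.87e-25). Of the 6 other inhibitors in the list, 3 fell, CDKN2B from 66.95 ± 2.52 to 47.3 ± 2.74 CPM (log2 fold change -0.50, adjusted p = 7.39e-12), CDKN1B from 82.00 ± 3.05 to 58.2 ± 3.12 CPM (log2 fold change -0.49, adjusted p = 1.95e-12) and CDKN2C from 107 ± 3.43 to 77.5 ± 2.42 CPM (log2 fold change -0.47, adjusted p = 2.72e-13). CDKN2A rose from 277 ± 6.600 to 301 ± 14.01 CPM (log2 fold change 0.12, adjusted p = 0.00202), and CDKN1C (adjusted p = 0.562) and CDKN2D (adjusted p = 0.521) did not pass. The remaining rise of the list was CDC25A, which is not an inhibitor, from 48.9 ± 2.07 to 65.2 ± 2.63 CPM without overlap (log2 fold change 0.41, adjusted p = 4.97e-10).

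Checkpoint and bypass genes were mixed, as were all genes tested (27.5% fell and 28.6% rose). Of 12 ATR checkpoint genes, 5 fell and 2 rose, among them CHEK1, the kinase downstream of ATR, which fell from 89.96 ± 2.39 to 78.1 ± 2.66 CPM (log2 fold change -0.20, adjusted p = 3.28e-05). ETAA1, an activator of ATR, fell from 28.4 ± 2.65 to 24.6 ± 1.93 CPM (log2 fold change -0.21, adjusted p = 0.00762), and HUS1, a subunit of the 9-1-1 clamp, rose from 23.9 ± 2.65 to 27.3 ± 2.71 CPM (log2 fold change 0.20, adjusted p = 0.0176). The count of rises was 1 without EV5 or without OE1. This list shares genes with earlier lists, so some of its falls were counted there too. Of 10 translesion synthesis genes, 3 fell and 2 rose. REV3L, the catalytic subunit of polymerase zeta, fell from 69.5 ± 6.07 to 47.9 ± 2.95 CPM (log2 fold change -0.54, adjusted p = 2.64e-11), and POLH, polymerase eta, rose from 41.9 ± 1.17 to 50.6 ± 2.91 CPM (log2 fold change 0.27, adjusted p = 1.26e-05). REV1 fell from 43.7 ± 1.97 to 39.5 ± 3.32 CPM (log2 fold change -0.15, adjusted p = 0.0232) and RAD18, which ubiquitinates PCNA, from 65.3 ± 3.81 to 59.5 ± 3.36 CPM (log2 fold change -0.13, adjusted p = 0.0149), and the count of falls in this list was 1 without EV2.

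Of 19 mitosis genes in the table (NUSAP1 was not), 15 fell and 2 rose, with a median log2 change of -0.18. Among all genes tested, 27.5% fell and 28.6% rose. KIF20A, a kinesin of cytokinesis, fell from 216 ± 4.99 to 140.0 ± 2.29 CPM (log2 fold change -0.63, adjusted p = 1.33e-19), PLK1, a mitotic kinase, from 155 ± 6.81 to 113 ± 4.71 CPM (log2 fold change -0.45, adjusted p = 3.44e-13), and CENPA, the centromeric histone, from 60.04 ± 2.19 to 44.6 ± 1.81 CPM (log2 fold change -0.43, adjusted p = 2.91e-10). The share of cells in each phase was not measured, and the part of these genes in the results on replication genes was not tested.

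**Figure D5:**
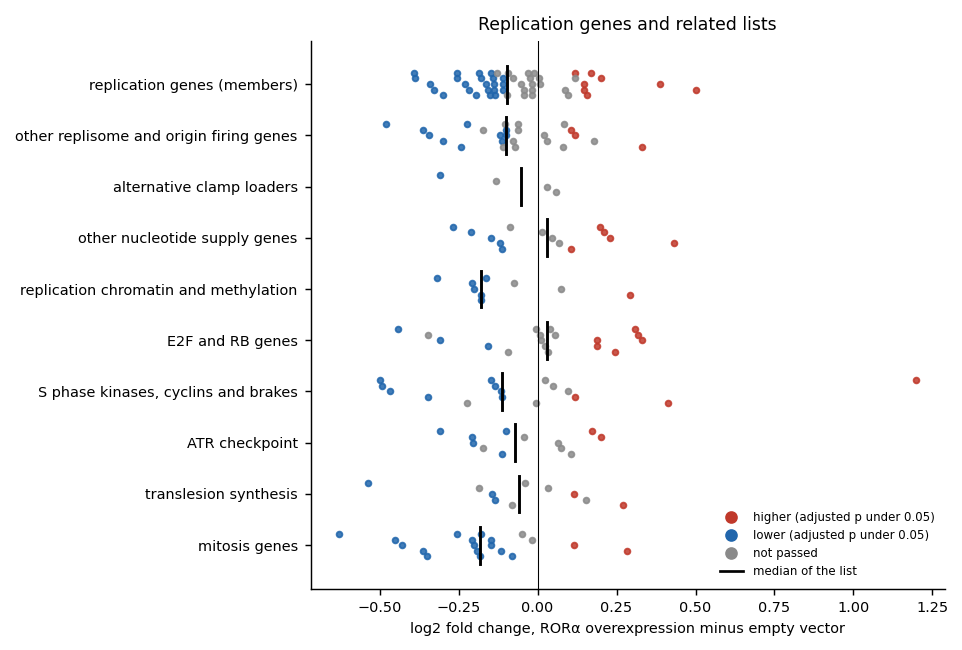
Log2 fold change (x axis) of each gene (points, coloured by the edgeR call) in the 49 replication genes and 9 related lists (y axis), with a black line at each list's median. Medians lie between -0.18 and 0.03, and CDKN1A at 1.2 is the point furthest to the right.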

How the data were processed

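RNA was extracted with TRIzol, selected on poly-T beads and primed with random hexamers, per the labels' protocols. Alignment with HISAT2 2.2.1 to GRCh38 and counting with HTSeq are named in the submitters' processing notes. The authors deposited raw read counts and FPKM per gene and library in 1 table of 12540 genes. No annotation release is named in the sources at hand. Counts, whole numbers, gave the results, and the deposited FPKM values were used for 2 limma alternatives. Counts were filtered by filterByExpr (at least 10 counts, total of at least 15), which left out 20 genes, scaled with TMM factors of 0.991 to 1.006 and fitted by edgeR 4.0.16 in R 4.3.3 (quasi-likelihood test, two-sided) with Benjamini-Hochberg adjustment over all 12520 genes tested. Groups came from the labels. The test was checked on simulated data.

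Alternatives were other scalings, no filter, DESeq2 1.42.0, limma 3.58.1 on log2(FPKM + 1) and log2(FPKM + 0.1), a replicate block, trends of GC content and exon length removed by splines of 4 degrees of freedom, and leaving out each library. Positions and lengths came from GENCODE 29, which matched 12528 gene IDs, and promoters from RefSeq. Copies were sought with BLAST 2.17.0. Limits from counts of 0 (3 counts) cover counting error only. Values in every library are given for the 6 largest rises and 6 largest falls past the threshold, the largest change in each role, PCNA, MSH6 and RORA, and up to 4 genes past the threshold from each related list were named with CDKN1A and E2F1. The members, lists and rules were chosen with earlier results of these data known. GMNN, CDC25A, CDKN2A, CDKN1C, CDKN2D, RBL1, E2F7, POLE3, POLD4, POLE4 and the named markers were chosen after their values were seen. Some genes that this rule names, and 1 related list, are not reported here.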

Additional observations from a re-analysis of the deposited data

Results flagged for a closer look

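Of 100 groups of 5 libraries (49 genes and RORA in each group), 6 had 1 library set apart from the other 4 by more than 0.71 of the group's range, where chance alone gives about 5. RPA2 was at 86.95 CPM in OE5, above 79.32 to 81.18 CPM in the other OE libraries. PCNA was at 289.5 CPM in OE2, below 298.5 to 301.0 CPM. CHAF1B was at 53.39 CPM in OE3, above 49.35 to 50.1 CPM, and POLE was at 214.2 CPM in OE3, above 205.1 to 206.7 CPM. ORC2 was at 31.44 CPM in EV4, below 36.24 to 37.86 CPM, and ORC4 was at 35.58 CPM in OE4, above 28.23 to 29.69 CPM. RPA2, PCNA, CHAF1B and POLE kept their calls with each library left out.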

How the results depend on the processing

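Of the 31 called genes, 24 kept their call in all 19 alternatives (19 lower, 5 higher), and none of the 49 changed sign while called. The exceptions were ORC2, RFC2, LIG1, TYMS, CDC45, RFC4 and ORC6. Falls numbered 21 to 24 with a library left out and rises 7 to 8. The median log2 change lay between -0.109 and -0.0721 with a library left out, and was -0.0788 in limma on log2(FPKM + 1), -0.0863 in limma on log2(FPKM + 0.1) and -0.132 with GC content and exon length trends removed. Limma on log2(FPKM + 1) kept 46 of the 49 genes. With a replicate block there were 23 falls, 8 rises and a median of -0.10, as without it. Libraries were treated as unpaired because the labels number the replicates without saying that the numbers pair them. Residual correlations of same-numbered libraries, computed afterwards, lay between -0.05 and 0.05. Depth was not low for any of these genes, and standard errors of the log2 changes ran from 0.029 to 0.093.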
